A study of Mus musculus with 52 samples.

Results

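The Rab GTPases of a mouse kidney cell line were described across 13 clones, counted separately in ciliated and non-ciliated cells. Members were all gene symbols in the count tables made of Rab, a number and at most 1 letter and 1 further digit, which gave 59 of the 24421 symbols. The rule reads names and no measured value, but it was set with earlier results of these data known. The study asked what point mutations in Wdr34 and Wdr60, the intermediate chains of the dynein-2 motor that carries cargo back along cilia, do to gene expression. Each clone was sequenced as 4 technical replicate libraries, so 52 libraries were analysed.

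The cells were Cilia-APEX-IMCD3, an immortalised line from mouse inner medullary collecting duct. Mutant clones were labelled as homozygous after CRISPR base editing, in which a cytosine base editor changes single bases, and they carried missense alleles modelled on human disease. Controls had received the editor with a guide plasmid that lacked a target. Ciliated cells comprised 3 mutant clones (Wdr34 1, Wdr34 3 and Wdr60) and 4 controls, named D8, H12, A4 and G7, and non-ciliated cells comprised 2 mutant clones (Wdr34 and Wdr60) and 4 control clones (AB, 1, 2 and 3). The labels gave neither the allele of a clone nor which non-ciliated clone corresponds to which ciliated one. Within a state, each mutated gene was represented by 1 clone or, for ciliated Wdr34, by 2. The paper describes 1 clone for each of 3 missense alleles, 2 in Wdr34 and 1 in Wdr60, with 1 Wdr34 allele absent from the non-ciliated set. It also reports unintended heterozygous changes, a missense one in the clone of that Wdr34 allele and a synonymous one in the Wdr60 clone. It names 4 control clones and 3 mutant clones, so control and mutant clones alike may stand in both states and be counted in each. The comparison of states did not pair them. According to the methods, cilia were induced by serum starvation, while the labels give the same serum for all samples. State, serum and time of sequencing cannot be told apart.

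Rab proteins are small GTPases that mark membranes. Bound to GTP, each recruits its own effectors (motors, tethers and coats) to 1 or a few compartments, and guanine exchange factors and GTPase-activating proteins switch it on and off. Rab8, Rab10, Rab11, Rab23, Rab28 and Rab34 are known to act at the primary cilium, in membrane delivery, in the ciliary vesicle or in Hedgehog signalling. Rab6a and its paralog Rab6b act at the Golgi, where Rab6 recruits Bicaudal-D and through it the dynein-1 motor. Rab6a is found in nearly all cells, and Rab6b is best known from brain.

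Library totals ran from 14816218 to 28084979 counts, and the Rab genes together took 0.339% to 0.455% of them. Within clones, 4 libraries had a chi-square per degree of freedom of at least 25 against each other library of their clone: replicate 1 of control AB, of control A4 and of the non-ciliated Wdr60 clone, and replicate 4 of G7. The ciliated Wdr60 libraries fell into pairs, 1 with 2 and 3 with 4, neither of which can be called the odd one, so fits without the libraries that stood apart left out replicates 1 and 2 or, in their place, 3 and 4. Replicate 1 of H12 was also farther from the others (14.6 to 20.3) than they were from each other (2.67 to 5.54), and was kept. Wdr34 (21.7 to 49.5 CPM, counts scaled to library size) and Wdr60 (20.4 to 30.8 CPM) were transcribed in every clone, which does not check the labels, since the edits change single bases. Of 15 epithelial markers, 9 exceeded 10 CPM in at least 1 clone, but Aqp2, the water channel that defines principal cells of the collecting duct, was near 0 in all clones. The 4 endothelial markers summed to at most 0.186 CPM. In 2 control clones, ciliated G7 and non-ciliated 2, the epithelial genes Cdh1 (14.4 and 4.22 CPM) and Epcam (13.5 and 2.86 CPM) were low, against 241 to 649 CPM of Cdh1 and 182 to 836 CPM of Epcam in the other clones.

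Rab6a and Rab6b lie on different chromosomes. In mouse genome GRCm38 (RefSeq), Rab6a lies at chr7:100607575-100641268 and Rab6b at chr9:103111667-103185276, both on the plus strand. Their coding sequences have the same length, 627 bases, of which 492 (78.5%) are identical, and the longest run without a difference is 14 bases. The windows of 90 coding bases in which the paralogs are most alike and least alike are shown because they bear on whether a short read could be credited to the wrong paralog. Capitals mark the bases at which the paralogs differ, and positions are counted from the A of the start codon.
Rab6a, coding bases 61 to 150: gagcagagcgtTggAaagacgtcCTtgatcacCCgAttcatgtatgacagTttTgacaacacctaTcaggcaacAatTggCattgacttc
Rab6b, coding bases 61 to 150: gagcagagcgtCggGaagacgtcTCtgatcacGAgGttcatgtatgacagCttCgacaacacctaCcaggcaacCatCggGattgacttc
Rab6a, coding bases 400 to 489: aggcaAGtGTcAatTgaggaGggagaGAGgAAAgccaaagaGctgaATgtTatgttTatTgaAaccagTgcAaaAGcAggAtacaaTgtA
Rab6b, coding bases 400 to 489: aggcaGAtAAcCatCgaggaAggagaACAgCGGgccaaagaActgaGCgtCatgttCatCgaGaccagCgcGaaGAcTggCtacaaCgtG
The first window, which holds 13 differences (85.6% identity), is spliced from exons between 100608284 and 100628424 on chromosome 7 for Rab6a and between 103112217 and 103160840 on chromosome 9 for Rab6b. The second holds 28 differences (68.9% identity) and lies between 100631852 and 100634732 and between 103162652 and 103163897. Among all 59 members, 78 pairs shared an identical stretch of at least 20 exonic bases, and the longest was 44 bases, in Rab30 with Rab3c and with Rab8b. Exons of 12 members overlapped those of another gene, among them Rab6a, which shares 708 bases with Mrpl48 on the opposite strand, and Rab20, which shares 356 with E230013L22Rik. The strand setting of the counting was not given, so reads of such partners cannot be told apart. Rab6b overlapped no other listed gene.

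Levels of different genes were compared per length, as CPM per kb of the union of exons. Rab7, the late endosomal Rab, was the most abundant at 129 ± 31.2 CPM per kb (mean and SD over 13 clones). It was followed by the early endosomal Rab5c at 98.5 ± 7.12, by the ER-to-Golgi Rabs Rab1 at 89.8 ± 14.8 and Rab1b at 88.6 ± 14.9, and by Rab10 at 85.1 ± 9.22 CPM per kb. From Rab1, the 3rd, to Rab2a, the 8th (75.9 ± 11.1), each gene differed from the next by less than the SD of either. Rab6a was 11th at 55.6 ± 9.34 CPM per kb. Rab6b was 40th at 2.53 ± 1.95 CPM per kb, between Rab27a (3.0 ± 1.19) and Rab27b (2.36 ± 1.32), from which it differed by less than the spread over clones. Mean Rab6a was 22 times mean Rab6b on this scale.

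**Figure D1:**
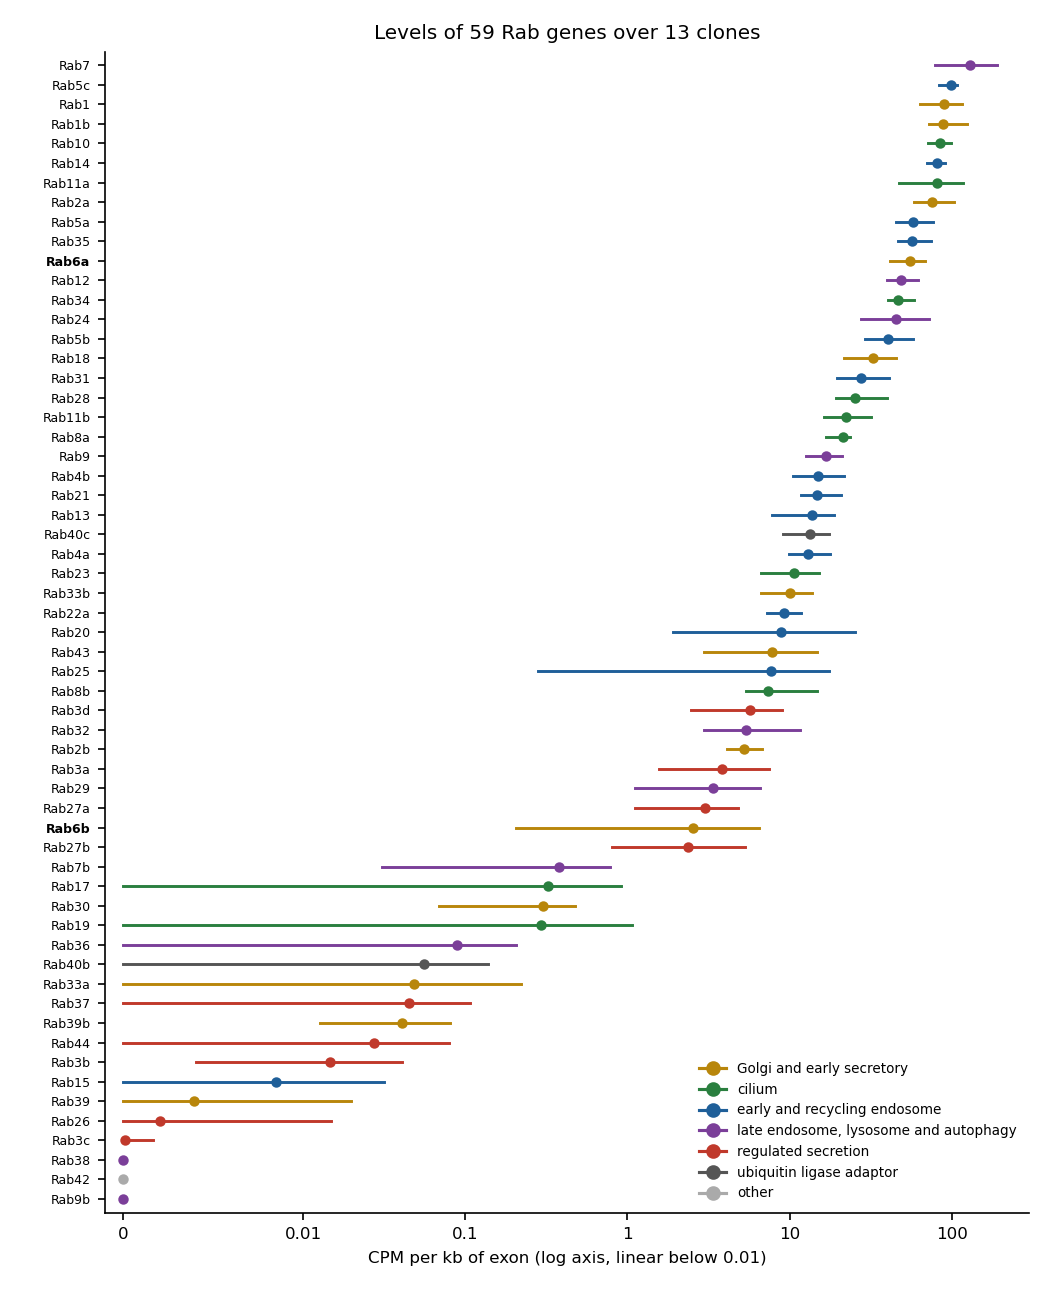
Level of each of the 59 Rab genes in CPM per kb of exon (x axis, logarithmic, linear below 0.01), ordered by mean. Points are means over 13 clones, lines run from the lowest to the highest clone, and colours give the role; Rab6b spans 0.207 to 6.5 CPM per kb while Rab6a spans 41.5 to 68.0.

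Of the 59 members, 42 had a count in every library and 14 stayed under 1 CPM in every clone. Rab38, Rab42 and Rab9b had no count in any library, which allows up to 0.202 CPM in the shallowest library (3 counts; counting error only). In all, 46 members passed the filter on low counts in at least 1 of the main comparisons, and 13 passed in none. Of 41 members above 1 CPM per kb, 21 differed over 2-fold between their lowest and highest clone, with a median of 2.06-fold. Rab14, of the trans-Golgi network and early endosomes, and Rab5c were among the narrowest at 1.29-fold, and Rab6a differed 1.64-fold. The widest ranges at that level belonged to Rab25 (62.2-fold), Rab6b (31.4-fold) and Rab20 (13.2-fold).

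With clones counted separately by state, Rab6b was lower in 4 of the 5 mutant clones than in any control clone of either state. In non-ciliated cells it was measured at 2.84 ± 0.57 CPM (SD of 4 libraries) in the Wdr34 clone and 1.04 ± 0.23 CPM in the Wdr60 clone. The controls were at 11.7 ± 3.06 CPM in AB, 9.75 ± 0.74 in clone 1, 32.7 ± 1.43 in clone 2 and 16.6 ± 0.74 in clone 3. All 8 mutant libraries lay below all 16 control libraries, with 11 to 66 counts against 127 to 664.

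In ciliated cells, Rab6b was at 2.64 ± 0.14 CPM in Wdr34 1, 12.2 ± 0.85 CPM in Wdr34 3 and 1.68 ± 0.45 CPM in Wdr60. The ciliated controls D8, H12, A4 and G7 were at 20.6 ± 0.24, 14.7 ± 2.49, 11.8 ± 1.63 and 27.3 ± 1.10 CPM. Wdr34 3 therefore lay within the range of the controls, just above A4, while the other 2 mutant clones lay below all of them.

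**Figure D2:**
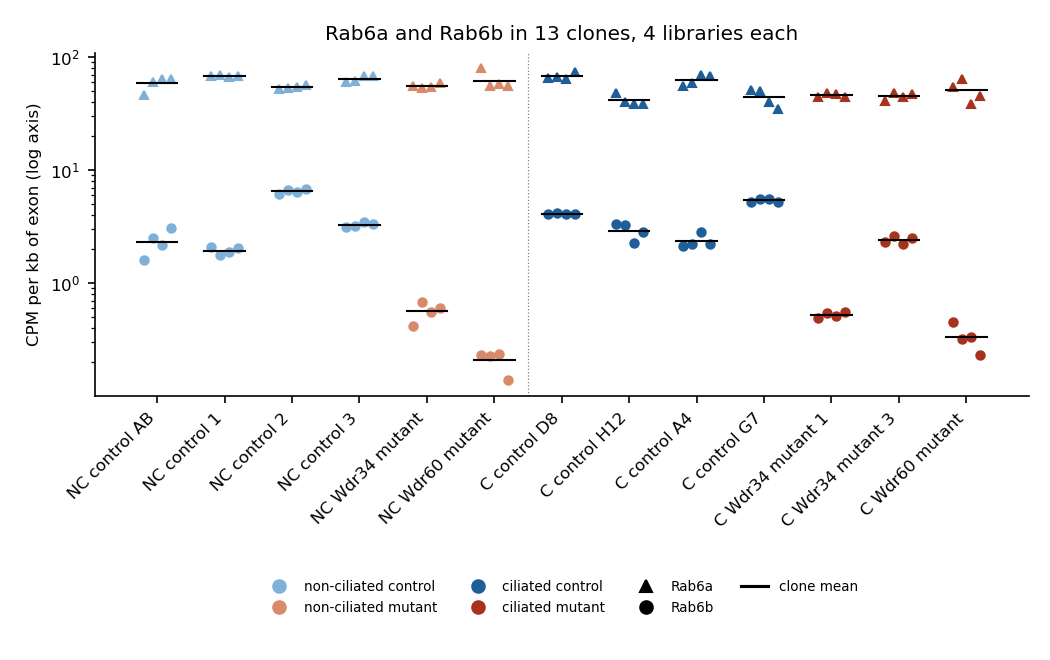
Rab6a (triangles) and Rab6b (circles) in CPM per kb of exon (y axis, logarithmic) in each of 52 libraries, grouped by clone (NC, non-ciliated; C, ciliated); black bars are clone means. Rab6a stays between 41.5 and 68.0 in all clone means, whereas Rab6b is at or below 0.564 in 4 mutant clones and at 1.94 or above in the other 9 clones.

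Tested with edgeR's quasi-likelihood test and Benjamini-Hochberg adjustment over all genes, Rab6b fell by 3.19 on the log2 scale (SE 0.37, adjusted p = 5.18e-06) in non-ciliated mutants and by 1.76 (SE 0.36, adjusted p = 0.00518) in ciliated mutants. A gene was called at an adjusted p under 0.05 and a log2 change of at least 1. In ciliated cells, Rab6b was the only member called lower, 1 of 46 tested, where 0.226% of all 11950 genes were called lower. In non-ciliated cells, Rab6b and Rab20 were called lower, 2 of 43 tested, where 2.57% of all 12012 genes were. These tests count libraries, and the 4 libraries of a clone are technical. With the libraries of a clone summed and the clone as the sample, the Rab6b changes were of the same size (-1.76 and -3.17) but the adjusted p was 0.9998 in ciliated and 0.976 in non-ciliated cells, in fits that called 0 of all genes lower. In the exact 2-sided permutation test over clone means, Rab6b gave p = 0.0571 in ciliated cells and p = 0.0667 in non-ciliated cells, where 0.0667 is the smallest p that 15 splits allow; both were 1 after adjustment over all genes. Without replicate 1, or without replicate 3, of every clone, the adjusted p in ciliated cells was 0.0506 or 0.0672. Without Wdr34 3 the ciliated change of Rab6b was -3.11 (adjusted p = 1.18e-08). In a limma fit with the clone as a block (voomLmFit), the change of Rab6b was -3.17 with an adjusted p of 0.0564 in non-ciliated cells and was not called there.

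Against the controls of its state, each of 4 mutant clones had Rab6b called lower by itself. The log2 changes were -2.63 (SE 0.45) for non-ciliated Wdr34, -4.08 (SE 0.50) for non-ciliated Wdr60, -2.81 (SE 0.30) for ciliated Wdr34 1 and -3.47 (SE 0.33) for ciliated Wdr60. The edgeR adjusted p was 0.00102, 2.47e-05, 3.29e-05 and 1.56e-06, in that order. For Rab6b in Wdr34 3 the log2 change was -0.63 (SE 0.26, adjusted p = 0.0923), which was not called. In the 4 fits with a call, 1.97%, 2.43%, 0.46% and 1.29% of all genes were called lower, and in the fit of Wdr34 3, in which no member was called, 3.64% were called higher and 2.16% lower. These comparisons share their control clones within each state, and with 1 clone a genotype and a clone effect cannot be told apart.

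Rab6a did not follow its paralog. Its clone means were 192 and 213 CPM in the non-ciliated mutants and 186 to 233 CPM in their controls, and 155 to 175 CPM in the ciliated mutants and 142 to 232 CPM in theirs, so the groups overlapped in both states. The log2 change of Rab6a was -0.05 (SE 0.07, edgeR adjusted p = 0.656) in non-ciliated and -0.20 (SE 0.11, adjusted p = 0.339) in ciliated mutants. Rab6b made up 3.58% to 11% of the Rab6a and Rab6b signal per length in control clones other than clone 1 (2.77%). In the mutant clones it made up 0.331% to 1.13%, apart from Wdr34 3 at 5.09%.

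Of 8 tested genes near Rab6b on chromosome 9, 1 was also lower in mutants. Slco2a1, the prostaglandin transporter, ends at 103096002, upstream of the start of Rab6b at 103111667. It was at 103 and 67.3 CPM in the non-ciliated Wdr34 and Wdr60 clones and at 106, 198, 186 and 269 CPM in controls AB, 1, 2 and 3. In ciliated cells Slco2a1 was at 119, 81.5 and 128 CPM in Wdr34 1, Wdr34 3 and Wdr60 and at 206, 138, 192 and 279 CPM in D8, H12, A4 and G7. Every mutant clone lay below every control clone of its state, narrowly so for AB and H12. Of all genes tested, 0.828% were separated in this direction in ciliated and 5.95% in non-ciliated cells. The log2 change of Slco2a1 was -1.15 (SE 0.20, edgeR adjusted p = 0.000556) in non-ciliated cells, which was called, and -0.91 (SE 0.14, adjusted p = 0.000357) in ciliated cells, which missed the fold limit; without clone 3 or without non-ciliated Wdr60, the non-ciliated change was -0.94 or -0.87 and was not called. With the libraries of a clone summed, the edgeR adjusted p of Slco2a1 in non-ciliated cells was 0.976, and 0 of all genes were called lower in either state. None of the other genes, upstream (Cep63, Anapc13, Amotl2 and Ryk) or downstream (Srprb, Topbp1 and Cdv3), was called in either state by edgeR, although Anapc13 had an adjusted p of 0.0419 in non-ciliated cells (log2 change 0.34, SE 0.11), under the fold limit.

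The other 9 tested Golgi and early secretory Rabs were not called in either mutant comparison, where 0.226% to 2.57% of all genes were called in a given direction. In ciliated cells the log2 changes of all 10, Rab6b included, ran from -1.76 to 0.18 with a median of -0.03, beside -0.01 over all genes, and in non-ciliated cells from -3.19 to 0.21 with a median of -0.05, beside 0.00. Rab2b, which acts between ER and Golgi, was at 13.1 and 12 CPM in the non-ciliated mutants and 13.5 to 17.9 CPM in their controls, and its log2 change was -0.37 (SE 0.10, edgeR adjusted p = 0.0137). For Rab2a the clones were at 153 and 181 CPM against 125 to 152 CPM, with a log2 change of 0.21 (SE 0.06, adjusted p = 0.0309). Both stayed within the fold limit, although their non-ciliated mutant clones did not overlap the controls. Rab43 was at 22.4 and 18.1 CPM in the non-ciliated mutants and at 16.1, 22.1, 51.1 and 28.4 CPM in AB, 1, 2 and 3, which overlapped (-0.54, SE 0.24, adjusted p = 0.129).

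**Figure D3:**
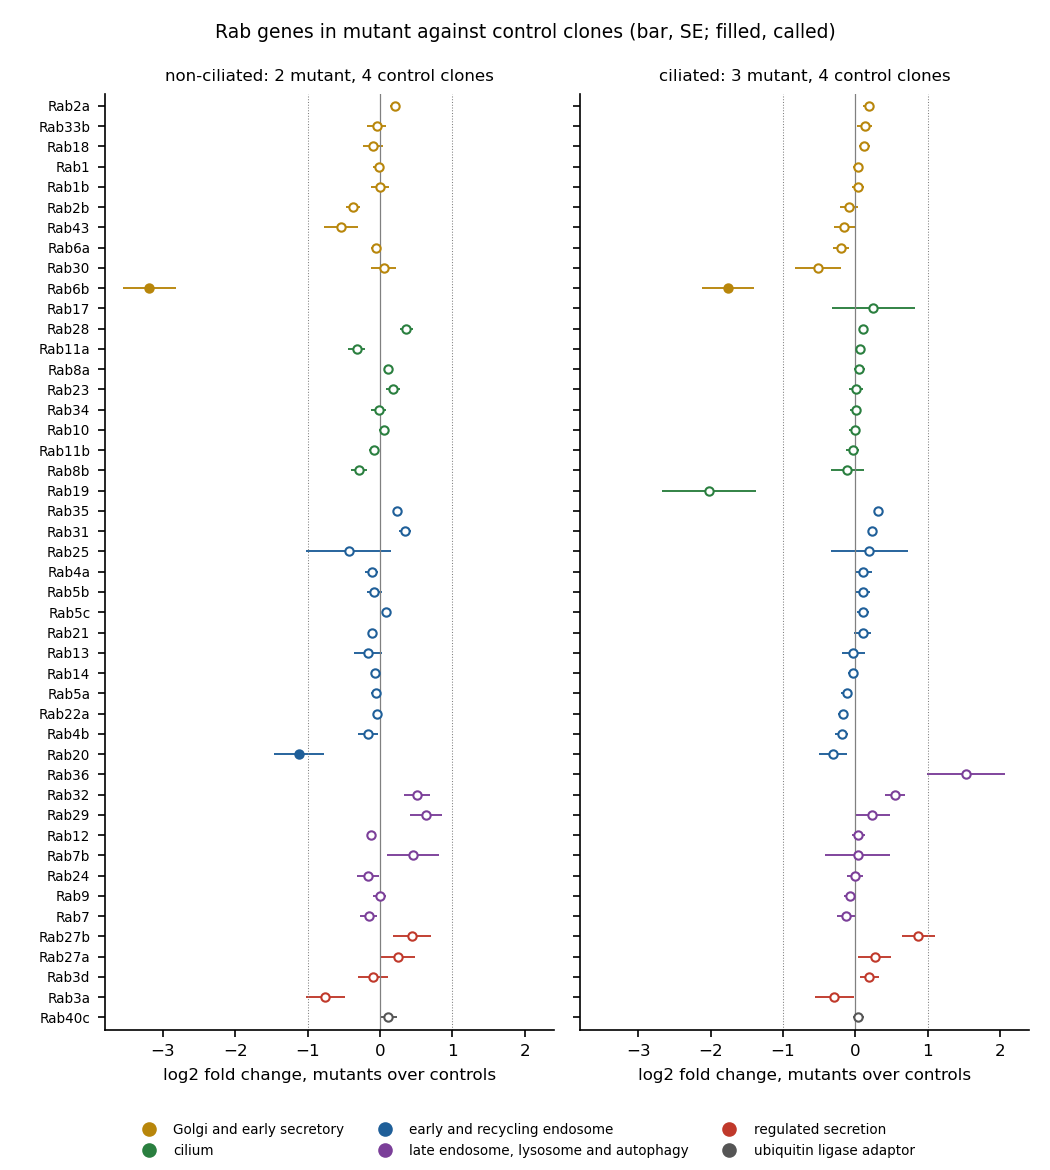
Log2 fold change of mutants over controls (x axis) for each Rab gene tested, in non-ciliated cells (left) and ciliated cells (right); bars are SE, filled points were called, dotted lines mark a change of 1, and colours give the role. Rab6b stands at -3.19 and -1.76, while most members lie within 0.5 of 0.

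Of the ciliary Rabs, 10 were tested in ciliated and 8 in non-ciliated cells, and none was called between mutants and controls of either state (edgeR; 1 and 4 had an unadjusted p under 0.05, as did 19.2% and 30.3% of all genes). The members most tied to cilium formation moved little in ciliated mutants: Rab8a at 88.3 to 103 CPM in mutants and 76.9 to 107 CPM in controls, Rab10 at 260 to 318 and 253 to 312 CPM, Rab11a at 210 to 279 and 190 to 258 CPM, and Rab34, which is needed for the ciliary vesicle, at 74.8 to 85.8 and 71.7 to 102 CPM. All 4 overlapped between groups. In non-ciliated mutants, Rab28 was at 52.5 and 69.5 CPM and in controls at 39.9 to 58.4 CPM, with a log2 change of 0.36 (SE 0.09, edgeR adjusted p = 0.00966), under the fold limit.

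Rab19, which acts in clearing the cortical actin for cilium growth, was scarce and uneven. Its 4 libraries of the ciliated Wdr60 clone had no count, while the controls D8, H12, A4 and G7 were at 0.030, 1.69, 1.34 and 0.974 CPM. Against the floor of 3 counts over the clone (0.04 CPM), Rab19 was at least 25.2-fold lower there than the control mean of 1.01 CPM, and it was called in the fit of that clone (edgeR adjusted p = 0.0227). D8, a control, was nearly as low, and in non-ciliated cells control 3 also had no Rab19 count in 4 libraries. In the fit of that clone, the edgeR adjusted p of Rab19 was 0.0543 without control A4, and 0.0899 or 0.196 without the libraries that stood apart (replicates 1 and 2 or 3 and 4 of the Wdr60 clone). Over all 3 ciliated mutants the log2 change of Rab19 was -2.02 (SE 0.65, adjusted p = 0.0791), with Wdr34 1 at 0.399 and Wdr34 3 at 0.343 CPM. Without D8 that change was -2.42 (adjusted p = 0.0153) and was called.

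In the early and recycling endosome group, 13 members were tested in each state. Of them only Rab20 in non-ciliated cells was called, lower, where 2.57% of all genes were called lower. Rab20, which sits on endosomes and phagosomes, was at 2.66 ± 0.36 and 3.24 ± 0.58 CPM in the non-ciliated Wdr34 and Wdr60 clones. Controls AB, 1 and 3 were close to them, at 3.81 ± 0.75, 4.84 ± 0.35 and 3.15 ± 0.66 CPM, while control 2 was at 13.8 ± 1.0 CPM. The groups overlapped, as the Wdr60 clone lay above control 3. The log2 change of Rab20 was -1.12 (SE 0.35, edgeR adjusted p = 0.0292), and without control 2 it was -0.42 (adjusted p = 0.0743). It was likewise not called without either mutant clone or without any 1 replicate number, with adjusted p between 0.0532 and 0.188. In ciliated cells Rab20 was at 14.4 to 17.5 CPM in mutants and 12.2 to 35.2 CPM in controls (log2 change -0.31, SE 0.19, adjusted p = 0.392).

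Rab35 and Rab31 passed the adjusted p upward in mutants of both states, under the fold limit. Rab35, which controls fast endocytic recycling, was at 166, 207 and 211 CPM in the ciliated mutants Wdr34 1, Wdr34 3 and Wdr60 and at 150 to 169 CPM in their controls, and at 146 and 178 CPM in the non-ciliated mutants and 132 to 140 CPM in theirs. Its groups did not overlap in non-ciliated cells, and in ciliated cells Wdr34 1 lay below D8. The log2 change of Rab35 was 0.31 (SE 0.06, edgeR adjusted p = 0.00223) in ciliated and 0.24 (SE 0.05, adjusted p = 0.00393) in non-ciliated cells, both far from the fold limit. For Rab31, which acts between the trans-Golgi network and endosomes, they were 0.23 (SE 0.07, adjusted p = 0.0458) and 0.34 (SE 0.08, adjusted p = 0.00797). Rab31 was at 114 to 157 CPM in ciliated mutants and 103 to 119 CPM in their controls, and at 93.6 and 121 CPM in non-ciliated mutants and 75.0 to 101 CPM in theirs, so its groups overlapped in both states (exact permutation p over clones 0.114 and 0.2).

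No late endosomal, lysosomal or autophagy Rab was called between mutants and controls, of 8 tested in ciliated and 7 in non-ciliated cells. Of all genes, 0.418% were called higher and 0.226% lower in ciliated mutants, and 0.491% and 2.57% in non-ciliated mutants. Rab32, which serves lysosome-related organelles, was at 7.36, 13.9 and 9.56 CPM in the ciliated mutants Wdr34 1, Wdr34 3 and Wdr60 and at 6.37 to 8.24 CPM in the controls, with a log2 change of 0.55 (SE 0.14, edgeR adjusted p = 0.0227). In non-ciliated cells Rab32 was at 13.8 and 24.8 CPM in mutants and 8.34 to 17.9 CPM in controls (0.51, SE 0.18, adjusted p = 0.0540). The Rab32 groups overlapped in both states. Rab29, a trans-Golgi and lysosomal partner of the kinase Lrrk2, was at 8.85 and 6.85 CPM in the non-ciliated mutants and at 7.62, 3.19, 3.16 and 6.19 CPM in controls AB, 1, 2 and 3, and the groups overlapped. Its log2 change was 0.64 (SE 0.22, adjusted p = 0.0495) in non-ciliated and 0.23 (SE 0.24, adjusted p = 0.648) in ciliated cells.

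Rab36, which positions late endosomes, was the only member whose ciliated mutant clones all lay above all controls. It was at 0.550, 0.835 and 0.674 CPM in Wdr34 1, Wdr34 3 and Wdr60 and at 0.449 and 0.492 CPM in D8 and G7, with no count in H12 and A4. Of all genes tested in ciliated cells, 1.12% were separated in this way and 0.828% in the opposite way, in which no member was. The log2 change of Rab36 was 1.52 (SE 0.54, edgeR adjusted p = 0.115) and the exact permutation test over clones gave p = 0.143, so it was not called. In non-ciliated cells, 3 members (Rab2a, Rab35 and Rab5c) lay above and 3 (Rab12, Rab2b and Rab6b) below all controls, where 6.95% and 5.95% of genes did.

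Among Rabs of regulated secretion, 4 of 9 were tested, and Rab27b was called in single clones. Rab27b, which docks secretory granules and multivesicular endosomes at the plasma membrane, was at 24.1 ± 2.82 CPM in the non-ciliated Wdr60 clone and 6.87 ± 0.65 CPM in the non-ciliated Wdr34 clone, on either side of the controls at 8.6, 12.4, 8.11 and 16.2 CPM (AB, 1, 2 and 3). In ciliated cells it was at 39.8 ± 8.48 CPM in Wdr60, 27.9 ± 1.81 in Wdr34 3 and 21.7 ± 0.74 in Wdr34 1, against 24.2, 13.7, 21.3 and 6.04 CPM in D8, H12, A4 and G7. Both Wdr60 clones were above all controls of their state.

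Against controls of the same state, the log2 change of Rab27b was 1.08 (SE 0.20, edgeR adjusted p = 0.00170) in non-ciliated Wdr60 and 1.29 (SE 0.34, adjusted p = 0.0282) in ciliated Wdr60. It was the only member called higher in these fits, where 0.986% and 0.642% of all genes were. In non-ciliated Wdr34 the change was -0.71 (SE 0.23, adjusted p = 0.0525). Rab27b lost both calls without the libraries that stood apart (0.99, adjusted p = 0.00511, in non-ciliated cells; 0.98, adjusted p = 0.168, or 1.5, adjusted p = 0.0899, in ciliated cells by the pair left out), and in non-ciliated cells also without control AB (0.98) or control 2 (0.95). Over all 3 ciliated mutants the change was 0.87 (SE 0.23, adjusted p = 0.0345), under the fold limit. That change was called without Wdr34 1 (1.05, adjusted p = 0.0174), without D8 (1.12, adjusted p = 0.0162) or without A4 (1.01, adjusted p = 0.0314). Rab3a, the Rab of synaptic vesicles, was at 3.74 and 4.44 CPM in non-ciliated mutants and 3.06 to 10.4 CPM in controls (-0.75, SE 0.26, adjusted p = 0.0543).

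No member was called higher in mutants of either state by edgeR or by DESeq2; the shares of all genes were 0.418% (ciliated) and 0.491% (non-ciliated). Of 46 members tested in ciliated cells, 27 (58.7%) had a positive log2 change, beside 47.4% of all genes, with a median of 0.03, and 10 (21.7%) reached an unadjusted p under 0.05, beside 19.2%. Of 43 in non-ciliated cells, 16 (37.2%) were positive, beside 50.3% of all genes, with a median of -0.05, and 15 (34.9%) reached it, beside 30.3%. At an adjusted p under 0.05 with no fold limit, 5 members (10.9%) passed in ciliated cells, where 3.17% of all genes did, and 8 (18.6%) in non-ciliated cells, where 15% did. The summed Rab level was 3746 ± 124 CPM (SD over clones) in non-ciliated mutants and 3791 ± 213 CPM in their controls, and 4124 ± 104 and 4035 ± 285 CPM in ciliated cells. Both differences lay within the spread between clones.

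Between ciliated and non-ciliated control clones, 1 member was called higher, Rab20, of 43 tested, where 6.29% of all 11856 genes were called higher and 3.99% lower. Rab20 was at 12.2 to 35.2 CPM in ciliated and 3.15 to 13.8 CPM in non-ciliated controls, which overlapped only through non-ciliated control 2 and D8. Its log2 change was 1.65 (SE 0.28, edgeR adjusted p = 5.53e-06) and the exact permutation p over clones was 0.0571, with 0.0286 as the smallest that 70 splits allow. With the libraries of a clone summed, the Rab20 change was 1.67 with an adjusted p of 0.0789. No member was called lower by edgeR or DESeq2, and 24 (55.8%) reached an unadjusted p under 0.05, beside 64.4% of all genes.

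Most state differences were smaller. With no fold limit, 24 of 43 members (55.8%) had an adjusted p under 0.05, against 60.9% of all genes: 17 were higher and 7 lower in ciliated controls. Clone means did not overlap for 5 members that were higher (Rab11b, Rab22a, Rab24, Rab31 and Rab35) and 2 that were lower (Rab28 and Rab32), where 10.6% and 12.5% of all genes were separated in those directions.

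**Figure D4:**
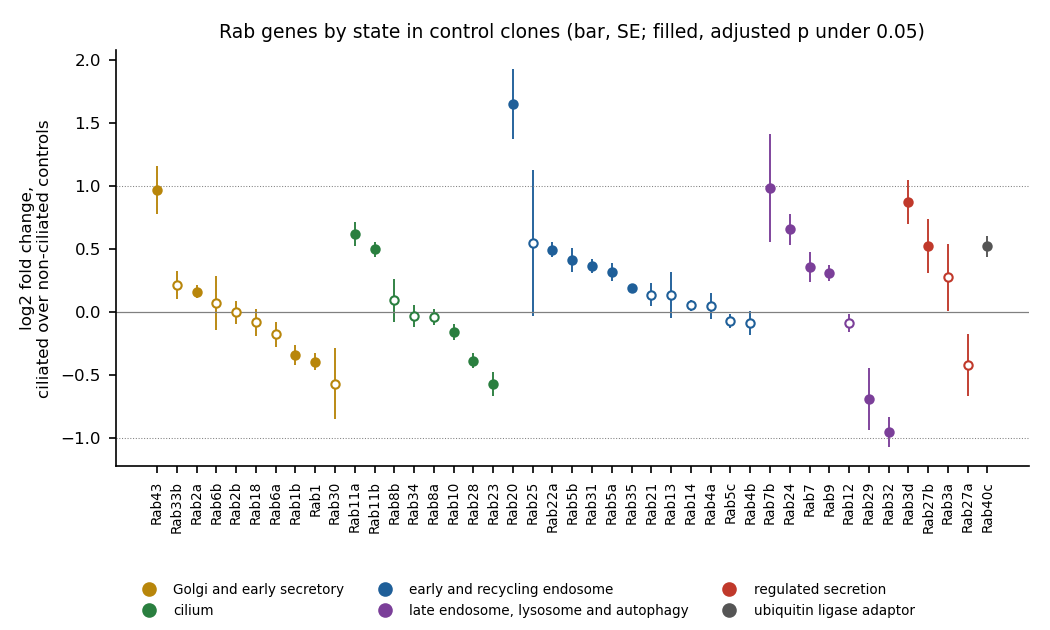
Log2 fold change of ciliated over non-ciliated controls (y axis) for each of 43 Rab genes, grouped and coloured by role; bars are SE, filled points have an adjusted p under 0.05, and dotted lines mark a change of 1. Rab20 at 1.65 lies above the line, and Rab43 (0.97), Rab7b (0.99) and Rab32 (-0.96) lie just inside.

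Of 8 ciliary Rabs, 5 passed the adjusted p alone by state, 2 upward and 3 downward, beside 60.9% of all genes. Of the recycling Rabs, Rab11a went from 152 ± 35.6 CPM (SD over 4 clones) in non-ciliated to 233 ± 29.9 CPM in ciliated controls (log2 change 0.62, SE 0.09, edgeR adjusted p = 8.55e-07) and Rab11b from 114 ± 8.88 to 160 ± 15.2 CPM (0.50, SE 0.06, adjusted p = 1.78e-08). In the same group Rab23, a negative regulator of Hedgehog signalling, was lower, at 38.3 ± 7.23 against 57.0 ± 11.9 CPM (-0.57, SE 0.10, adjusted p = 5.23e-06), as were Rab28 (-0.39, SE 0.06, adjusted p = 3.16e-06) and Rab10 (-0.16, SE 0.06, adjusted p = 0.0290). Rab8a, Rab8b and Rab34 did not reach an adjusted p of 0.05.

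Of 10 Golgi Rabs, 4 passed, 2 in each direction, beside the 60.9% of all genes. Rab1 was at 220.5 ± 29.6 CPM in ciliated and 291 ± 34.1 CPM in non-ciliated controls (-0.40, SE 0.07, edgeR adjusted p = 8.00e-06), and Rab1b had a log2 change of -0.34 (SE 0.08, adjusted p = 0.000602). Rab2a (0.16, SE 0.05, adjusted p = 0.00908) and Rab43 were higher, the latter going from 29.4 ± 15.3 to 57.5 ± 17.9 CPM (0.97, SE 0.19, adjusted p = 4.36e-05). Rab6b did not differ detectably by state in the main fit, at 18.6 ± 6.85 CPM in ciliated and 17.7 ± 10.4 CPM in non-ciliated controls (0.08, SE 0.21, edgeR adjusted p = 0.777). Under other settings, each with its own test, the Rab6b change by state ran from -0.17 to 0.55, under the fold limit (lowest adjusted p = 0.00649). The Golgi group as a whole made up 24.4% ± 1.57 of the Rab signal per length in ciliated controls and 29.0% ± 1.02 in non-ciliated controls.

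Of the 13 early endosomal Rabs, 11 had a positive change by state, with a median of 0.19 beside 0.02 over all genes, and 6 passed the adjusted p, all upward, while 51.7% of all genes were positive and 60.9% passed. Besides Rab20, they were Rab22a (0.49), Rab5b (0.41), Rab31 (0.37), Rab5a (0.32) and Rab35 (0.19), all on the log2 scale. Of 7 late endosomal Rabs, 6 passed: Rab7b (0.99), Rab24 (0.66), Rab7 (0.36) and Rab9 (0.31) upward, and Rab32 (-0.96) and Rab29 (-0.69) downward. Over clone means, the groups did not overlap for Rab24 and Rab32 and overlapped for the other 4, with an exact permutation p of 0.743 for Rab7b, 0.286 for Rab7 and 0.229 for Rab29. Rab3d, of secretory granules in exocrine cells, was at 28.5 ± 8.40 against 15.6 ± 6.02 CPM (0.87, SE 0.17, edgeR adjusted p = 5.22e-05), and Rab40c, a subunit of a ubiquitin ligase, changed by 0.52 (SE 0.08, adjusted p = 2.37e-06). The mesenchymal markers moved with state too, with 3 of the 3 tested called lower in ciliated controls (summed 172 to 529 against 376 to 1318 CPM), and the leukocyte list summed to 171 to 298 CPM in ciliated and 25.3 to 54.6 CPM in non-ciliated controls. Nearly all of that sum was Csf1r (log2 change 2.66), while Cd68 was lower in ciliated controls (-0.62), Ptprc stayed under 1 CPM and Cd3e was at 0. Cubn, of the proximal tubule list, was called lower in ciliated controls (-2.42) and the epithelial Cdh16 higher (1.08), and 6 of 8 proliferation genes passed the adjusted p with none called. Of the neuron list, Tubb3 was the 1 gene tested by state and was called lower in ciliated controls (-1.56, adjusted p = 0.00578). The part of these in the Rab differences was not tested.

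A difference of the mutant effect between states was tested as an interaction over all 52 libraries. No member was called by edgeR or DESeq2, of 46 tested, where 1.12% of 12544 genes were called higher and 0.0638% lower in ciliated cells. In all, 4 members (8.7%) had an unadjusted p under 0.05, beside 14.4% of all genes. For Rab6b the difference was 1.43 (SE 0.50, edgeR adjusted p = 0.132). It was called for Rab6b without non-ciliated Wdr34 (2.32, adjusted p = 0.0452), without Wdr34 1 (1.76, adjusted p = 0.0433), without ciliated Wdr60 (1.86, adjusted p = 0.0116) or without G7 (1.68, adjusted p = 0.0265). Without Wdr34 3, the clone with Rab6b in the control range, the difference was 0.08 (adjusted p = 0.967). It was also called without the libraries that stood apart when replicates 3 and 4 of ciliated Wdr60 were left out (1.60, adjusted p = 0.0382). For Rab27b the difference was called without non-ciliated Wdr60 (1.59, adjusted p = 0.0168). Rab20 was called higher without G7, where 451 of all genes were.

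Rab25, Rab6b, Rab20 and Rab43 lay at an extreme of their state in the 2 control clones with low epithelial markers. Whether Rab levels vary with these markers over all clones was not tested. The following genes were chosen after their values were seen. Rab25, an epithelial relative of Rab11, was at 0.438 CPM in G7 and 0.344 CPM in non-ciliated control 2, the 2 control clones with little Cdh1 and Epcam, and at 3.34 CPM in Wdr34 3. In the other 10 clones Rab25 was at 4.64 to 21.4 CPM. Rab25 was not called in any comparison over all clones. Without G7 it was called lower in Wdr34 3, and without control AB higher by state.

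The same 2 control clones had the highest Rab6b (27.3 and 32.7 CPM), and within their states the highest Rab20 (35.2 and 13.8 CPM) and Rab43 (79.5 and 51.1 CPM). Krt8, an epithelial keratin, was at 26.3 CPM in G7, 41.0 CPM in control 2 and 76.8 CPM in Wdr34 3, against 372 to 951 CPM in the other clones. Unlike in G7 and control 2, Cdh1 (301 CPM) and Epcam (287 CPM) in Wdr34 3 lay within the range of the other clones over both states, but below those of the other ciliated clones apart from G7 (407 to 649 and 639 to 836 CPM). The proximal tubule list also had its highest sums in G7 and control 2, at 451 and 285 CPM against 16 to 119 CPM in the other clones. Nearly all of both sums was Lrp2, which made up 447 of the 451 CPM in G7, so they do not speak for the whole list. Cubn was at 2.11 to 24.1 CPM over all clones, Slc5a2 stayed under 1 CPM, and Slc34a1 and Slc22a6 had no count. Lrp2 was called lower in non-ciliated mutants (log2 change -4.00, SE 0.73, edgeR adjusted p = 0.000891), and in ciliated mutants its change was -2.06 (adjusted p = 0.0954). Map2, of the neuron list, was called higher in ciliated mutants (3.50, SE 0.94, adjusted p = 0.0371) and, of the 3 ciliated mutant clones, only in Wdr34 3 (5.06, adjusted p = 2.34e-06; 29.5 CPM there), while Rbfox3, Snap25, Syt1 and Stmn2 stayed under 1 CPM in every clone. In the fit of Wdr34 3, 1 of 4 mesenchymal genes and 1 of 11 epithelial genes tested were also called higher. Called lower there were 2 of the 11 epithelial genes and 1 of 2 leukocyte genes, where 3.64% of all genes were higher and 2.16% lower. The part of these markers in the Rab differences was not tested. Wdr34 3 was also the mutant clone with the highest Rab6b. Without G7 and control 2, Rab6b was still called lower in both states, and Rab20 was no longer called between non-ciliated mutants and controls. By state, 4 members were then called higher (Rab20, Rab3d, Rab43 and Rab7b) and Rab32 lower, where 883 and 584 of all genes were.

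**Figure D5:**
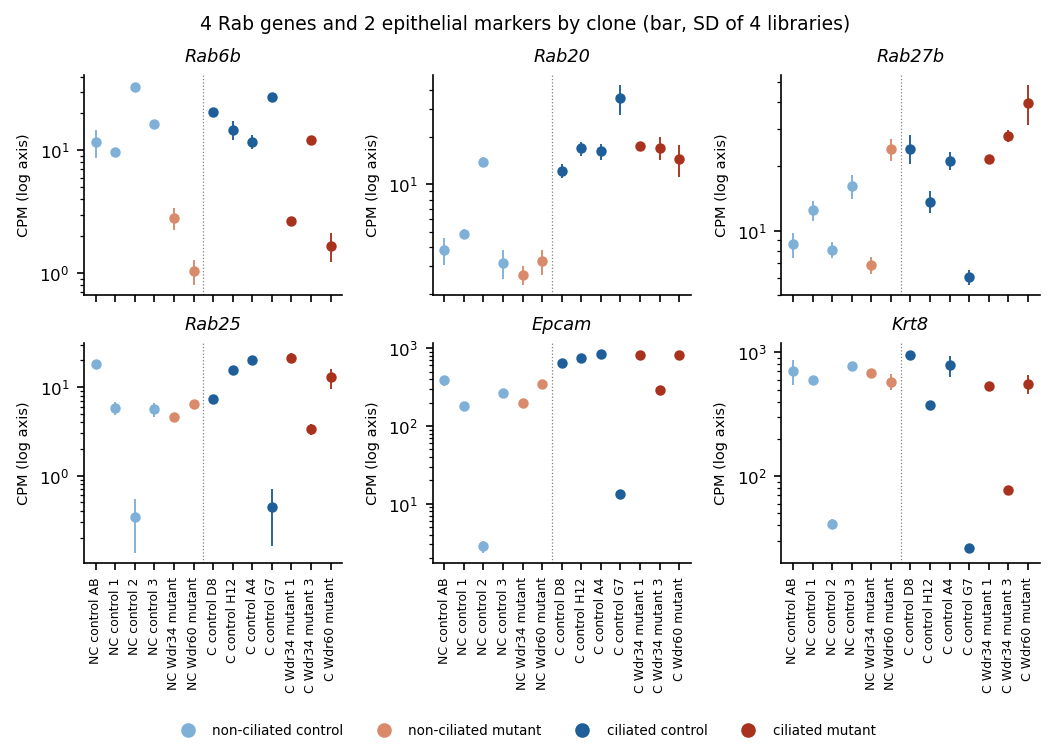
CPM (y axes, logarithmic) of Rab6b, Rab20, Rab27b and Rab25 and of the epithelial markers Epcam and Krt8 in 13 clones (NC, non-ciliated; C, ciliated); points are means and bars SDs of 4 libraries. In clones G7 and 2, Rab25, Epcam and Krt8 are lowest of all clones while Rab6b is highest.

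Genes that act with Rabs were counted from 3 lists. Of the regulators and effectors of Rab6, 22 were tested in ciliated and 21 in non-ciliated cells, and none was called in mutants of either state or between states (edgeR), with 2 and 5 at an unadjusted p under 0.05 in the mutant comparisons, beside 19.2% and 30.3% of all genes. Their median log2 change was -0.08 in ciliated and -0.12 in non-ciliated mutants, beside -0.01 and 0.00 over all genes. By state, 17 of 21 tested passed the adjusted p alone, beside 60.9% of all genes, with a median of -0.18 beside 0.02. Over the mutant and state comparisons, 0.226% to 6.29% of all genes were called in a given direction. Of 8 genes of Rab prenylation and recycling, none was called in these comparisons. In each mutant comparison 1 had an unadjusted p under 0.05, beside the same 19.2% and 30.3% of all genes. By state, 7 of the 8 passed the adjusted p alone, beside 60.9% of all genes. Of 12 tested genes of the ciliary Rab cascade, Tbc1d30, a GTPase-activating protein for Rab8, was called lower in non-ciliated mutants, where 2.57% of all genes were. Tbc1d30 was at 0.444 and 0.123 CPM in the Wdr34 and Wdr60 clones and at 4.80, 2.12, 0.408 and 2.05 CPM in AB, 1, 2 and 3, so control 2 lay within the mutants' range. Its log2 change was -3.01 (SE 0.61, edgeR adjusted p = 0.00201). With the libraries of a clone summed, the adjusted p of Tbc1d30 was 0.976. In ciliated cells Tbc1d30 was at 5.18, 1.83 and 0.389 CPM in Wdr34 1, Wdr34 3 and Wdr60 and at 3.94, 5.81, 9.92 and 0.239 CPM in D8, H12, A4 and G7 (-1.02, SE 0.58, adjusted p = 0.355).

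By state, Rab3il1, an exchange factor of the Rabin family, was called higher in ciliated controls (1.59, SE 0.53, edgeR adjusted p = 0.0104). It was 1 of 12 cascade genes tested, where 6.29% of all genes were called higher. Rab3il1 was at 0.843, 1.52, 0.374 and 6.62 CPM in D8, H12, A4 and G7 and at 0.460, 0.0982, 1.33 and 1.20 CPM in AB, 1, 2 and 3. All ciliated controls but H12 and G7 lay within the non-ciliated range. Without G7 the log2 change of Rab3il1 was 0.24 (adjusted p = 0.660), and without non-ciliated control 1 it was 1.23 (adjusted p = 0.0519), neither of them called.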

How the data were processed

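Total RNA of 13 clones was sequenced in 4 libraries each. The deposited values are raw read counts per gene, which the authors made with featureCounts against GRCm38 (mm10); their notes also name R 3.4.4 and DESeq2 1.18.1. Strand and the treatment of reads with several matches are not given in the sources used here. The members and lists were chosen with earlier results of these data known.

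Counts were filtered (filterByExpr), scaled by TMM and tested with edgeR 4.0.16 (quasi-likelihood, R 4.3.3) over all genes with Benjamini-Hochberg adjustment, the libraries entering as samples. The fits held no term for the clone, so p-values rest on the spread of libraries within and between clones. They treat each library as independent, although libraries of a clone are technical. An exact 2-sided permutation test over clone means of log2(CPM + 0.1) was run beside these fits. CPM values were scaled over all 52 libraries. Levels per kb used the union of exons in the GENCODE annotation, which also gave strands, exon overlaps, transcript sequences and the positions of the coding windows. Start and end coordinates of genes came from RefSeq GRCm38.p6, which matched 24281 symbols. Replicate pairs (78) were compared by chi-square, and none was identical. By rule, genes were named with values by clone if they were Rab6a or Rab6b, were called, or were among the 5 members with the largest absolute change in a mutant comparison; called genes of the 3 partner lists were named too. All other genes with values (the ciliary and endosomal Rabs within the fold limit, the state examples, Rab25, Slco2a1 and the markers) were chosen after their values were seen. Alternatives were DESeq2 1.42.0, voomLmFit (limma 3.58.1) with the clone as a block, RLE scaling, other filters, summed libraries, a replicate block and leaving out replicates or clones. The scripts were tested on simulated data. The simulated counts held no spread between clones, so they cannot show error rates of fits to technical libraries. Not every gene near Rab6b is reported here.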

Additional observations from a re-analysis of the deposited data

Results flagged for a closer look

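In 89 groups of 4 control clones with at least 1 CPM, 9 held a clone far from the other 3 by Dixon's criterion, and chance gives about 1 in 20 groups. In non-ciliated control 2, Rab10 (276 CPM) and Rab2a (125 CPM) were far below the other controls and Rab20 (13.8 CPM) far above. In control AB, Rab17 (1.54 CPM) and Rab7b (1.89 CPM) were far above and Rab7 (207 CPM) far below. In ciliated G7, Rab34 (102 CPM) and Rab8b (69.5 CPM) were far above, and in H12 Rab24 (87.1 CPM) was.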

How the results depend on the processing

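Of the values for single genes under other settings, 1065 kept direction and side of the threshold, 43 came past it, 44 lost it and 42 changed sign, of which 0 were past it. Counts of members called moved as follows; the cause was not tested. With libraries of a clone summed, 0 were called lower in ciliated or in non-ciliated mutants, where 0 of all genes were, and 0 higher by state, where 366 were. With voomLmFit and the clone as a block, 0 were lower in non-ciliated mutants (Rab6b -3.17, adjusted p = 0.0564) and 2 higher by state, where 9 and 531 of all genes were. With the adjusted p alone, 4 were higher in ciliated and 5 in non-ciliated mutants, where 189 and 855 of all genes were. By state 17 were then higher and 7 lower, where 3700 and 3521 of all genes were. With DESeq2, 2 were higher by state, 2 lower in non-ciliated Wdr34 and 2 higher in non-ciliated Wdr60, where 783, 434 and 138 of all genes were. RLE scaling gave 2 higher by state, where 769 of all genes were. A filter of at least 1 count gave 2 higher and 1 lower by state, where 1410 and 1112 of all genes were. The next settings were chosen after seeing the data. Without the control clones of low epithelial markers, 1 was lower in non-ciliated mutants, where 243 of all genes were. By state 4 were then higher and 1 lower, where 883 and 584 of all genes were. Without the libraries that stood apart, 0 were higher in non-ciliated Wdr60, where 189 of all genes were. In ciliated Wdr60, 0 were higher and 1 lower, whichever pair of its libraries was left out. There 139 and 132 of all genes were called without replicates 1 and 2, and 28 and 42 without replicates 3 and 4. Without replicates 3 and 4 of ciliated Wdr60, 1 was higher in the interaction, where 256 of all genes were.

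Leaving out 1 replicate or clone, called members ranged from 0 to 2 lower and 0 to 1 higher in ciliated mutants, 1 to 2 lower and 0 to 1 higher in non-ciliated mutants, 1 to 5 higher and 0 to 2 lower by state, and 0 to 2 higher in the interaction. In single clones they ranged from 0 to 1 higher and 1 to 2 lower (non-ciliated Wdr34), 0 to 2 higher (non-ciliated Wdr60), 0 to 1 higher (Wdr34 1), 0 to 1 higher and 0 to 3 lower (Wdr34 3) and 1 to 2 lower (ciliated Wdr60).

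Sign changes were as follows (log2). In ciliated mutants, without the low-epithelial controls, Rab20 was 0.11, Rab3a 0.034, Rab43 0.048 and Rab3il1 0.86, and without the libraries that stood apart Rab43 was 0.014. Without those controls, Slco2a1 by state was -0.10. With voomLmFit and the clone block, Rab19 in the interaction was -0.53. Leaving out 1 replicate or clone, values ranged in ciliated mutants from -0.50 to 0.11 (Rab20), -0.58 to 0.034 (Rab3a), -0.0025 to 0.64 (Rab29), -0.30 to 0.048 (Rab43) and -1.44 to 0.86 (Rab3il1). In non-ciliated mutants they ranged from -0.16 to 0.016 (Rab6a) and -0.71 to 1.08 (Rab27b). By state they ranged from -0.17 to 0.55 (Rab6b), -0.035 to 0.56 (Rab3a) and -0.093 to 0.32 (Slco2a1). In the interaction they ranged from -0.74 to 1.64 (Rab19), -0.21 to 1.59 (Rab27b), -0.31 to 0.53 (Rab32), -0.66 to 0.0055 (Rab29), -0.017 to 0.60 (Rab43), -0.021 to 0.60 (Slco2a1) and -0.68 to 1.63 (Rab3il1).

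Replicate numbers did not pair libraries (median correlation 0.0112 in ciliated and 0.0146 in non-ciliated cells). With the replicate block, Rab6b was -1.76 (edgeR adjusted p = 0.0125) in ciliated and -3.19 (adjusted p = 3.9e-05) in non-ciliated mutants, and Rab20 was -1.13 (adjusted p = 0.0492). Members under 1 CPM rest on a few counts per library.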
